A study of Homo sapiens with 33 samples.

Results

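Integrins and laminins were followed in 3 head and neck squamous cell carcinoma (HNSCC) cell lines treated with cetuximab, through 35 genes taken by their symbols from a table of 56470 gene symbols. Of these genes, 25 encode integrin subunits and 10 encode laminin chains, and all 35 symbols were found. They were listed by name and not by a measured value, although earlier results of these data were known when the list was made. RNA was sequenced from SCC1 (UM-SCC-1), SCC6 (UM-SCC-6) and SCC25, established HNSCC cell lines, grown for up to 5 days with 100 nM cetuximab (CTX), an antibody against EGFR, or, as the untreated control, with PBS. PBS libraries cover days 0 to 5 and CTX libraries days 1 to 5, with 1 library for each line, treatment and day. The 33 libraries come from the parental lines, and no engineered genetic change is named for them. Among the CTX libraries of SCC6, 2 carry the label of day 2 and none that of day 1, and the names 2a and 2b follow the order of their sample records. The labels give SCC1 and SCC25 a medium with hydrocortisone, at a different concentration in each, and SCC6 a high-glucose medium with non-essential amino acids, while the study's methods name a single medium for the 3 lines. If the labels hold, line and medium cannot be told apart in comparisons with SCC6, nor line and hydrocortisone concentration between SCC25 and SCC1.

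Integrins are receptors made of an alpha and a beta subunit that bind matrix proteins outside the cell and link them to the cytoskeleton. Laminins are trimers of an alpha, a beta and a gamma chain and form the network of the basement membrane under epithelia. In squamous epithelium, basal cells hold on to this membrane with the integrin of the ITGA6 and ITGB4 subunits in hemidesmosomes and with ITGB1-containing receptors in focal contacts, and both bind the laminin that carries the LAMA3 and LAMB3 chains.

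Total counts ranged from 28508758 to 80727478 per library, with a median of 43002133, and the members took 0.62% to 1.3% of them. Of the 15 genes listed as output of the ERK pathway, which EGFR feeds, 12 fell in SCC1, 13 in SCC6 and 12 in SCC25, and none rose. Of all genes tested, 22.1%, 14.6% and 9.5% fell in the same order. The list was made with earlier results of these data known, so it is not an independent check of the treatment. The squamous markers were all detected, although KRT5 and KRT14, keratins of basal cells, averaged only 2.38 and 3.95 CPM with PBS in SCC6. Leukocyte markers summed to 75.2 to 857 CPM per library, fibroblast markers to 3.48 to 469 CPM, endothelial markers to 8.29 to 32.6 CPM and platelet markers to 0.966 to 7.36 CPM, and T cell and platelet genes such as CD2 and GP9 were at 0 in whole lines. Most of the leukocyte sum came from LCP1 and CD68, with PBS means of 629 and 199 CPM in SCC25. Only 4 of the 10 leukocyte markers had enough counts to be tested there. The libraries were sequenced on 5 flow cells that follow line, treatment and day, called A to E here. SCC25 was on A, except for its CTX libraries of days 3 to 5 on B, where the SCC1 PBS libraries of days 0 to 4 ran too. The remaining SCC1 libraries were on C together with SCC6 PBS of days 0 and 1. The other SCC6 libraries were on D, apart from CTX of days 4 and 5 on E. A within-line fit with the flow cell in the model thus compares the treatments within C in SCC1, D in SCC6 and A in SCC25. No 2 libraries of a line and treatment were alike within sampling noise. Days stand in for replicates in every test, so each p-value measures the spread between these libraries, and nothing in the labels says that they came from separate cultures. In bulk RNA, fewer cells that express a gene and less of its RNA per cell cannot be told apart.

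Without drug, the lines shared a core of abundant subunits. On the scale of CPM (counts per library total, scaled by TMM and to a common size) per kb of the canonical transcript, LAMB3 averaged 387 in SCC1, 562 in SCC6 and 294 in SCC25 over the 5 PBS libraries of days 1 to 5. ITGB1, the beta subunit shared by most matrix receptors, averaged 331, 508 and 715 per kb in the same order, so these 2 genes led in every line. ITGA2, ITGA3, ITGA6, ITGAV, ITGB4, LAMA3, LAMB1 and LAMC1 were all above 25 CPM per kb in each line. At the other end, ITGA8 and ITGA9 were under 0.01 CPM per kb in every line, and ITGAL, ITGAM and ITGA2B, which belong to leukocytes and platelets, stayed at or under 0.103.

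**Figure D1:**
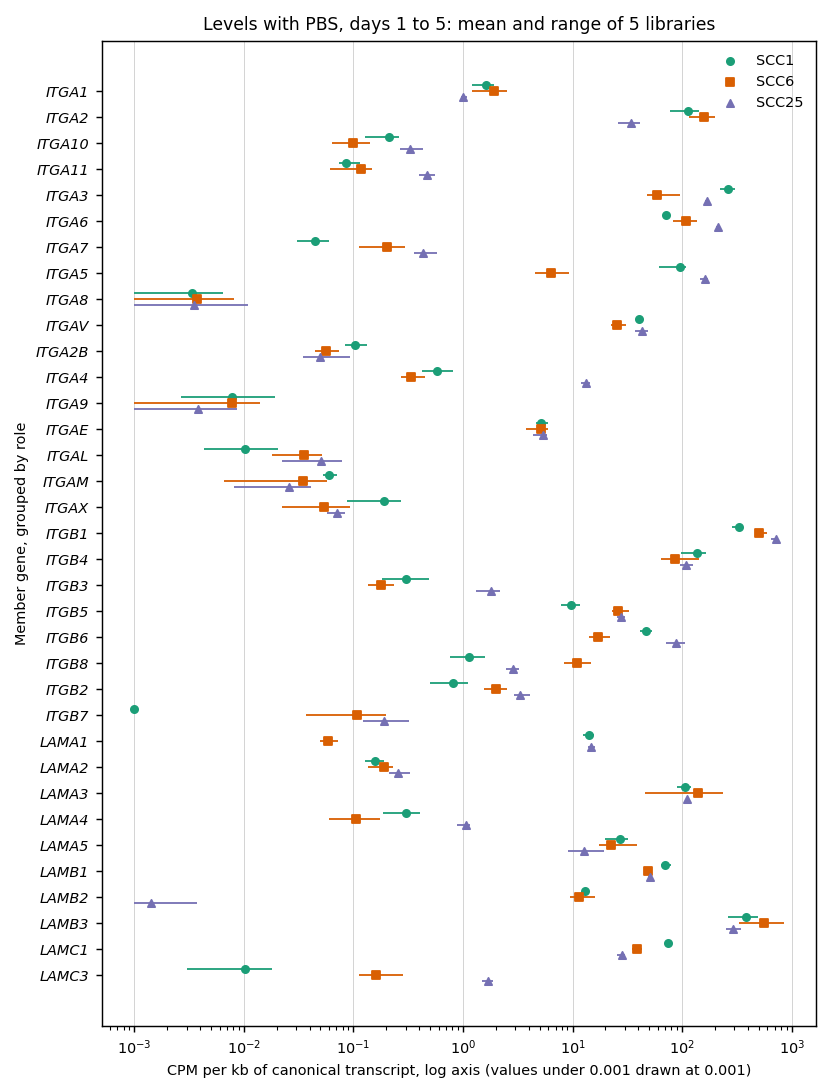
Levels of the 35 members with PBS on days 1 to 5, in CPM per kb of canonical transcript on a log axis, by gene and cell line. Symbols are means of 5 libraries and bars their range. LAMB3 and ITGB1 lie at the high end in each line, while LAMB2 in SCC25 and LAMA1 in SCC6 lie far below their levels in the other lines.

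Each line also had subunits that set it apart. LAMB2, the beta chain of the laminins of mature basement membranes, had 0 or 1 count in each of the 11 SCC25 libraries, within the 3 counts that a count of 0 allows. In SCC1 it had 2788 to 11090 counts per library. LAMA1, an alpha chain best known from the embryo, averaged 0.566 CPM in SCC6 with PBS against 135 in SCC1 and 143 in SCC25. ITGA4, part of a receptor for fibronectin and VCAM1, averaged 89.2 CPM in SCC25 against 3.91 in SCC1 and 2.27 in SCC6. ITGA5, the alpha subunit of the main fibronectin receptor, averaged 26.8 CPM in SCC6 against 405 in SCC1 and 684 in SCC25. ITGB8, a partner of ITGAV, was highest in SCC6 with 99.0 CPM, against 10.2 in SCC1 and 25.9 in SCC25. Of 32 members tested, 24 differed in level between SCC6 and SCC1 (10 higher in SCC6, 14 lower), where 69.1% of all genes did (34.5% higher, 34.6% lower). Between SCC25 and SCC1 26 differed (16 higher in SCC25, 10 lower), with 68.4% of all genes (35.1% and 33.3%), and between SCC6 and SCC25 23 differed (7 higher in SCC6, 16 lower), with 72.1% (34.8% and 37.3%). The medians over 30 of these, without ITGB7 and LAMB2, which had at most 1 count in every library of a line and treatment, were -0.40 log2 units for SCC6 minus SCC1, 0.37 for SCC25 minus SCC1 and -0.45 for SCC6 minus SCC25, beside medians of all genes of -0.00, 0.01 and -0.03. With libraries scaled to their totals alone, the medians of all genes were -0.18, -0.06 and -0.14 in the same order. ITGAE, which pairs with ITGB7 on lymphocytes of epithelia, and LAMA3 did not pass the test in any pair of lines.

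Cetuximab was then compared with PBS in each line, with 5 libraries a treatment. In SCC1, 22 of the 29 members that passed the filter on low counts changed, 6 higher and 16 lower, and 44.8% of all genes tested changed (22.7% higher, 22.1% lower). In SCC6, 15 of 29 changed, 9 higher and 6 lower, against 30.1% of all genes (15.6% and 14.6%), and in SCC25, 14 of 30 changed, 7 higher and 7 lower, against 18.3% (8.8% and 9.5%). With libraries scaled to their totals alone, the SCC25 split was 7 higher and 4 lower (18.2% of all genes called). The median log2 fold change of the members tested was -0.38 in SCC1, 0.15 in SCC6 and -0.04 in SCC25, and that of all genes was 0.02, 0.00 and 0.01 in the same order. In a fit of the 3 lines together, 23 of 33 members changed, 11 higher and 12 lower, with a background of 42.7% (22.9% higher, 19.8% lower). The medians there were -0.06 for the members and 0.03 for all genes. Without overlap between the 5 CTX and the 5 PBS libraries, 16 of 29 members stood apart in SCC1 (5 above, 11 below; 31.2% of all genes), 10 of 29 in SCC6 (6 above, 4 below; 19.1%) and 10 of 30 in SCC25 (6 above, 4 below; 14.9%).

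**Figure D2:**
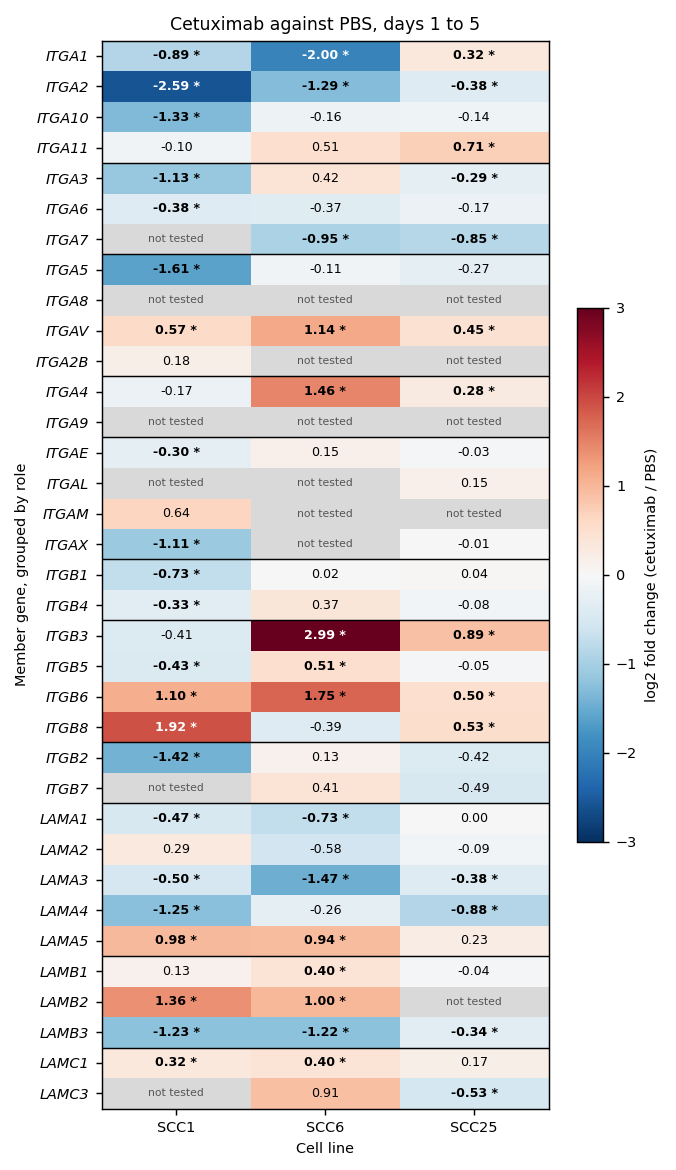
Log2 fold change of each member under cetuximab against PBS on days 1 to 5, by cell line (5 libraries per treatment), with colour from blue (lower) to red (higher). Bold values with an asterisk have an adjusted p under 0.05, and grey cells did not pass the filter on low counts. LAMA3, LAMB3 and ITGA2 are lower and ITGAV and ITGB6 higher in every line.

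Of the 25 members tested in all 3 lines, 6 changed in each of them, where 7.67% of all genes tested in the 3 lines did (6.98% in 1 direction). Of these, ITGA2, LAMA3 and LAMB3 fell and ITGAV and ITGB6 rose in every line, while ITGA1 fell in SCC1 and SCC6 and rose in SCC25. A further 11 members changed in 2 lines and 11 in 1 line, 7 changed in none, and ITGA8 and ITGA9 among these were tested in none.

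The laminin chains moved in opposite directions. LAMA3 and LAMB3, the alpha and beta chains of the laminin that anchors hemidesmosomes, fell in all 3 lines, whereas LAMA5 and LAMB2, chains of the broadly expressed laminins of basement membranes, rose in SCC1 and SCC6. In SCC1, LAMA3 was at 948, 1275, 1203, 1111 and 1083 CPM on days 1 to 5 with PBS, and at 506, 693, 891, 907 and 952 CPM with cetuximab. The PBS values lay higher on every day, but the groups overlapped by the CTX library of day 5 and the PBS library of day 1. The log2 fold change was -0.50 ± 0.15 (SE, n = 5 against 5, adjusted p = 0.016), and the call was lost with the flow cell in the model (-0.44, adjusted p = 0.26). In SCC25, LAMA3 was at 1245, 1181, 1190, 1163 and 1153 CPM with PBS and at 870, 862, 888, 989 and 965 CPM with cetuximab, with no overlap and little spread on either side. It fell by 0.38 ± 0.05 on the log2 scale there (adjusted p = 0.00056).

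In SCC6, LAMA3 fell by 1.47 ± 0.42 (adjusted p = 0.02), but its level also declined without drug. With PBS it went from 2859 CPM on day 0 through 2496, 2136, 1551 and 765 CPM to 491 CPM on day 5, a slope of -0.54 ± 0.06 log2 units per day (adjusted p = 0.00074). With cetuximab it was at 649 (2a), 822 (2b), 571, 347 and 330 CPM, so that the untreated libraries of days 4 and 5 lay inside the range of the treated ones. Without the CTX library of day 5 the adjusted p was 0.055, and within flow cell D the change was -0.86 (adjusted p = 0.15).

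LAMB3, the beta chain that pairs with LAMA3, fell with fewer overlaps. In SCC1 it was at 1051, 1755, 1962, 1583 and 1409 CPM with PBS and at 440, 706, 768, 663 and 702 CPM with cetuximab, with no overlap and a fold change of 2.35 downwards (log2 -1.23 ± 0.17, adjusted p = 8e-05). In SCC6 the PBS libraries went from 3414 CPM on day 1 through 2378, 2321 and 1834 to 1340 CPM on day 5, and the CTX libraries were at 944, 795, 1046, 1130 and 1012 CPM. All treated values were lower than all untreated ones, by 1.22 ± 0.21 on the log2 scale on average (adjusted p = 0.0013), while the PBS level itself declined by 0.30 ± 0.03 a day. In SCC25 LAMB3 was at 1001, 1139, 1210, 1163 and 1383 CPM with PBS and at 892, 951, 771, 1014 and 1042 CPM with cetuximab, where the groups overlapped. The change there was -0.34 ± 0.09 (adjusted p = 0.027) and missed the threshold when any of 4 libraries was left out (largest adjusted p = 0.066) and with the flow cell in the model (-0.35, adjusted p = 0.12).

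Sequences upstream of a RefSeq start are given for LAMA3, LAMB3 and LAMA5, because LAMA3 and LAMB3 fell together while LAMA5 rose. Those of ITGA2 and ITGB6, which changed in opposite directions in each line, are given too. Such a start can lie inside a gene, and none of these windows was shown to be at the first start of its gene. They are the 250 bases before a RefSeq start on the gene's strand, from build GRCh38.p14, with capitals for matches to TGANTCA, the letters bound by AP-1 factors, and GCCNNNGGC, those bound by TFAP2 factors. Both are read the same on either strand, and their matches do not overlap each other in these windows. The windows lie at chr18:23872770-23873019 on the plus strand (LAMA3), chr1:209651375-209651624 on the minus strand (LAMB3, the window of its 3 that holds a match), chr20:62367313-62367562 on the minus strand (LAMA5), chr5:52989102-52989351 on the plus strand (ITGA2) and chr2:160200273-160200522 on the minus strand (ITGB6).
LAMA3: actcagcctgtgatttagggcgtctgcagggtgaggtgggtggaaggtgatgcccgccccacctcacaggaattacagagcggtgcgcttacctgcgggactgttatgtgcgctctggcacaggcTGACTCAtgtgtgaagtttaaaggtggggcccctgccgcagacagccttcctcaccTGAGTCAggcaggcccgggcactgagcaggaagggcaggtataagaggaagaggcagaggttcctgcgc
LAMB3: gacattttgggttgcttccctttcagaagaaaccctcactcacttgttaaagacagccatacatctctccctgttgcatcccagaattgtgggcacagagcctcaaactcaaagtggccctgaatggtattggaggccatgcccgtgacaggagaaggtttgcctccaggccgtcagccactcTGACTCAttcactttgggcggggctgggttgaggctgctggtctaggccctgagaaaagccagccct
LAMA5: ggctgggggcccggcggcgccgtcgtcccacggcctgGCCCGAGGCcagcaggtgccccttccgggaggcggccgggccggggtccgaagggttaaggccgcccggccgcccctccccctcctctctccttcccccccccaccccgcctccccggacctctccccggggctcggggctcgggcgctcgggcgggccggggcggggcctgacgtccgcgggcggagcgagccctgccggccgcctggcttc
ITGA2: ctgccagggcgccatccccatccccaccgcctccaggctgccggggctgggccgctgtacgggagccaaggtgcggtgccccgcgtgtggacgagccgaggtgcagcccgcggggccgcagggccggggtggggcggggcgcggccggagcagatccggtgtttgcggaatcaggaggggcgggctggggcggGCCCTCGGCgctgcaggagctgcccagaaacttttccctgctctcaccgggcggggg
ITGB6: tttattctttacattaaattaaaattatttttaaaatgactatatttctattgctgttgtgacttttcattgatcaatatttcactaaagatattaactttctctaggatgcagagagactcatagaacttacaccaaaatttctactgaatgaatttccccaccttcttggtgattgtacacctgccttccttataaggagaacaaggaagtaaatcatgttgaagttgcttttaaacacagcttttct

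In the build of the counts, GRCh37, GENCODE places LAMA3 at chr18:21269417-21536186 (plus strand), LAMB3 at chr1:209788215-209825770 (minus strand), LAMA5 at chr20:60883011-60942368 (minus strand), ITGA2 at chr5:52285170-52390609 (plus strand) and ITGB6 at chr2:160956178-161056824 (minus strand). The windows and these gene positions are on different builds, so the place of a window within its gene cannot be read from them. Windows were found for 25 members, 32 in all, and 10 members had none. TGANTCA was in 2 of the 32 windows, those of LAMA3 (2 matches) and LAMB3, or 6.2%, against 6.6% of the 35116 windows of all genes. GCCNNNGGC was in 8 windows (25%, against 19.8% of all). The letters CACCTG, the site of E-box factors, read on either strand, were in 7 windows (21.9%, against 17.5%), and in the LAMA3 window their match shares letters with the downstream TGANTCA match. Such matches describe the letters in these windows and were not tested for binding.

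LAMA5, the alpha chain found in most adult basement membranes, rose in SCC1 from 278, 351, 365, 346 and 228 CPM with PBS to 410, 556, 579, 657 and 872 CPM with cetuximab. No treated library overlapped the untreated ones, and the change was 0.98 ± 0.18 on the log2 scale (adjusted p = 0.00074). In SCC6 it was at 442, 198, 204, 202 and 232 CPM with PBS and at 395 (2a), 299 (2b), 381, 829 and 582 CPM with cetuximab. The PBS library of day 1, the only one of these 5 on flow cell C, was higher than 3 of the treated libraries. The change was 0.94 ± 0.30 (adjusted p = 0.033), missed the threshold when any of 6 libraries was left out (largest adjusted p = 0.086), and was 0.77 within flow cell D (adjusted p = 0.00048). LAMA5 did not pass the test in SCC25 (0.23 ± 0.24), where its PBS level rose by 0.24 ± 0.03 log2 units a day, from 85.7 CPM on day 0 to 222 CPM on day 5.

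LAMB2, a beta chain that pairs with LAMA5, was at 70.9, 79.2, 70.3, 72.7 and 78.3 CPM with PBS in SCC1 and at 128, 161, 176, 213 and 267 CPM with cetuximab. Every treated library lay above every untreated one, by 1.36 ± 0.16 on the log2 scale (adjusted p = 2.6e-05). In SCC6 it was at 90.8, 55.8, 53.6, 64.1 and 62.5 CPM with PBS and at 109 (2a), 86.4 (2b), 110, 183 and 172 CPM with cetuximab. Only 2b lay below an untreated library, that of day 1, and the change was 1.00 ± 0.22 (adjusted p = 0.0051). LAMC1, the gamma chain of most laminins, rose by 0.32 ± 0.07 in SCC1 (adjusted p = 0.0023; 0.21 and adjusted p = 0.24 with the flow cell in the model) and by 0.40 ± 0.08 in SCC6 (adjusted p = 0.0041), with values of 0.17 ± 0.08 in SCC25 (adjusted p = 0.17). LAMB1, the other beta chain that joins it, rose in SCC6 alone, by 0.40 ± 0.09, with 0.13 ± 0.08 in SCC1 and -0.04 ± 0.04 in SCC25.

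**Figure D3:**
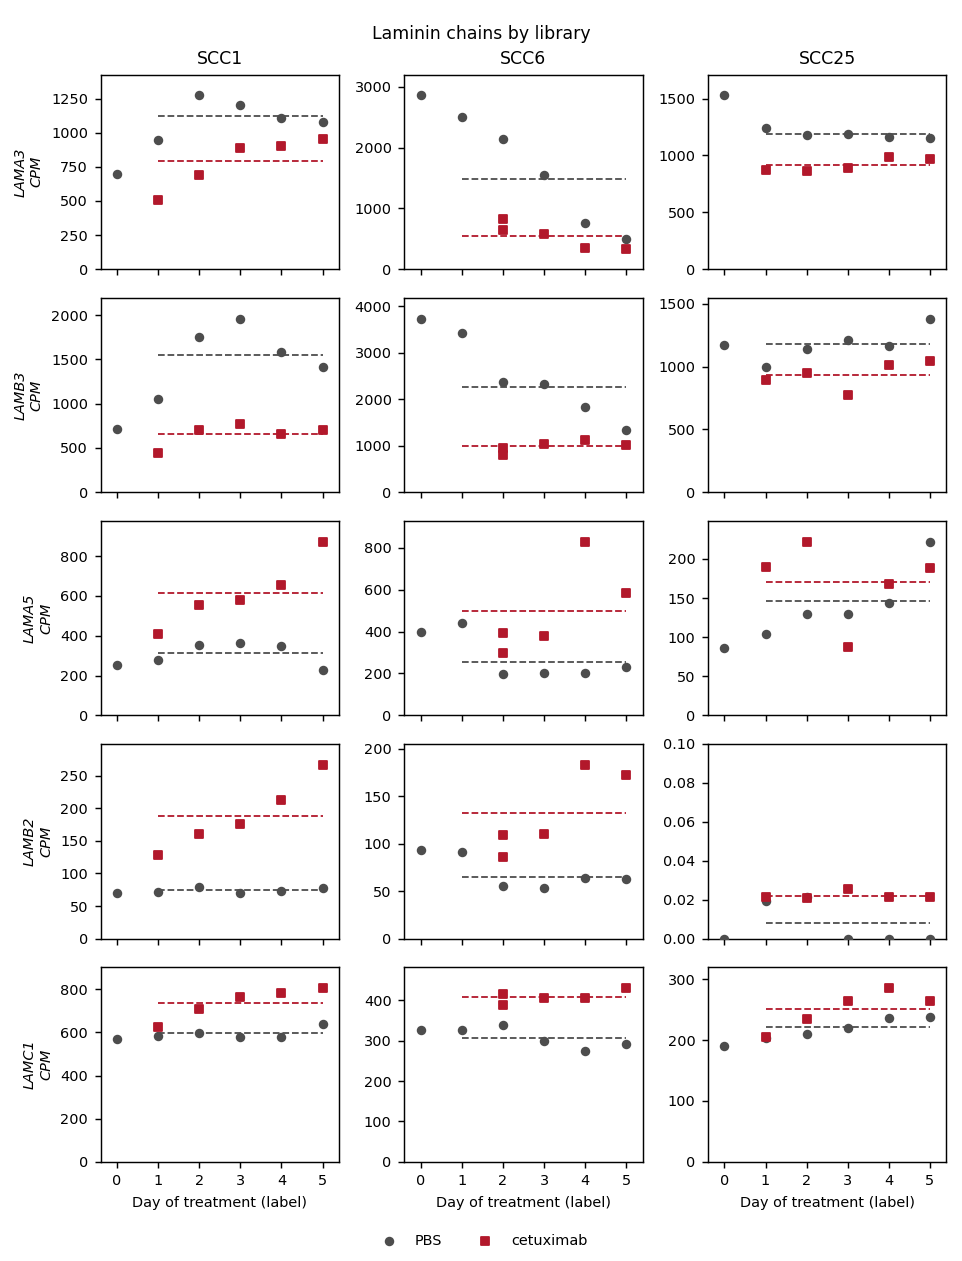
CPM of LAMA3, LAMB3, LAMA5, LAMB2 and LAMC1 in each library by labelled day and cell line, with PBS as grey circles and cetuximab as red squares, and dashed lines at the means of days 1 to 5. The 2 SCC6 libraries labelled day 2 are both drawn there. In SCC6 the PBS level of LAMA3 falls to 491 CPM by day 5, and in SCC25 LAMB2 has at most 1 count.

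The remaining laminin chains were lower or did not pass the test. LAMA4, a chain of vessel and muscle basement membranes, fell by 1.25 ± 0.23 in SCC1 and by 0.88 ± 0.13 in SCC25, from levels of at most 8.49 CPM, and was at -0.26 ± 0.33 in SCC6. Of the endothelial markers, 4 of 7 tested fell in SCC1 and none rose, and their sum was 10.5 to 25.6 CPM with PBS and 11.6 to 19.9 CPM with cetuximab. In SCC25 1 of 6 fell, ERG by 0.62 ± 0.10, and the sum went from 28.5 to 32.6 CPM to 15.3 to 29.4 CPM. None of the 10 markers was at 0 throughout a line, and their part in the fall of LAMA4 was not tested. LAMA1 fell in SCC1 by 0.47 ± 0.11, from 120 to 152 CPM with PBS to 76.7 to 115 CPM with cetuximab (-0.32 and adjusted p = 0.24 with the flow cell in the model), and in SCC6 by 0.73 ± 0.23 at 0.272 to 0.695 CPM, and it was at 133 to 156 CPM with either treatment in SCC25 (log2 change -0.00 ± 0.05). LAMA2, the chain of muscle basement membranes, did not pass in any line, at 0.703 to 3.19 CPM on days 1 to 5. LAMC3, a second gamma chain, was at 12.2, 14.0, 12.6, 11.1 and 13.7 CPM with PBS and at 11.7, 11.3, 5.91, 7.39 and 7.76 CPM with cetuximab in SCC25. Its fall of 0.53 ± 0.17 (adjusted p = 0.049) lay in the CTX libraries of days 3 to 5, which were on flow cell B while all others were on A. It missed the threshold when any of 8 libraries was left out (largest adjusted p = 0.12), and within flow cell A the change was -0.15 (adjusted p = 0.41).

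Integrins of the alpha V subunit, which bind RGD motifs in fibronectin and vitronectin and release TGF-beta from its latent form, rose for the most part. ITGAV itself was at 303, 285, 273, 268 and 308 CPM with PBS in SCC1 and at 328, 461, 492, 469 and 371 CPM with cetuximab, above every untreated library (0.57 ± 0.10, adjusted p = 0.00061). In SCC6 it was at 160, 217, 180, 175 and 170 CPM with PBS and at 434 (2a), 440 (2b), 435, 334 and 376 CPM with cetuximab. The groups stood well apart there, by a factor of 2.21 (log2 1.14 ± 0.11, adjusted p = 3.8e-05). In SCC25 it was at 260, 289, 345, 331 and 279 CPM with PBS and at 354, 392, 501, 422 and 387 CPM with cetuximab, again without overlap (0.45 ± 0.10, adjusted p = 0.0093). With the flow cell in the model the adjusted p was 0.097 in SCC1 and 0.13 in SCC25 and 7.7e-06 in SCC6.

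ITGB6, the epithelial partner of ITGAV, rose in every line. In SCC1 it was at 247, 227, 193, 195 and 227 CPM with PBS and at 339, 439, 528, 532 and 476 CPM with cetuximab. In SCC6 it was at 87.2, 103, 73.7, 65.7 and 70.5 CPM with PBS and at 278 (2a), 266 (2b), 287, 247 and 280 CPM with cetuximab. In SCC25 it was at 497, 413, 413, 392 and 332 CPM with PBS and at 585, 560, 607, 594 and 549 CPM with cetuximab. No library overlapped between treatments in any line. The factors were 2.14 in SCC1 (log2 1.10 ± 0.12, adjusted p = 1.5e-05), 3.35 in SCC6 (1.75 ± 0.12, adjusted p = 6.6e-06) and 1.41 in SCC25 (0.50 ± 0.09, adjusted p = 0.0025). It was the only member that rose in every line with the flow cell in the model as well, by 1.04, 1.82 and 0.49. The SCC25 PBS level declined by 0.16 ± 0.02 log2 units a day, from 621 CPM on day 0, so that the treated libraries lay below the untreated one of day 0.

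ITGB8, which also activates TGF-beta with ITGAV, rose in SCC1 from 14.1, 6.79, 7.98, 9.27 and 13.1 CPM to 28.4, 35.6, 40.0, 46.4 and 41.8 CPM. The groups stood apart by a factor of 3.78 (log2 1.92 ± 0.20, adjusted p = 1.1e-05). In SCC25 it went from 25.5, 22.0, 25.1, 29.4 and 27.5 CPM to 30.8, 33.2, 43.1, 40.5 and 39.9 CPM, with no overlap (0.53 ± 0.10, adjusted p = 0.0049), and the value was 0.31 with the flow cell in the model (adjusted p = 0.087). In SCC6, where it was most abundant, the value was -0.39 ± 0.23 (adjusted p = 0.22). ITGB3, the partner of ITGAV known from platelets, vessels and osteoclasts, was at 0.811 to 1.39 CPM with PBS in SCC6 and at 6.70 (2a), 3.15 (2b), 11.1, 8.32 and 12.8 CPM with cetuximab (log2 2.99 ± 0.34, adjusted p = 9.6e-05). In SCC25 it was at 9.19, 7.88, 10.9, 13.0 and 12.7 CPM with PBS and at 13.7, 16.4, 19.6, 24.6 and 25.6 CPM with cetuximab (0.89 ± 0.18, adjusted p = 0.0066). The treated libraries were higher throughout in both lines, and with the flow cell in the model the SCC25 value was 0.49 (adjusted p = 0.12). In SCC1 ITGB3 did not pass the test, with means of 1.8 CPM with PBS and 1.35 CPM with cetuximab, and was lower with cetuximab on 4 of 5 days. Platelet markers summed to 2.38 to 7.36 CPM with PBS and 1.09 to 2.03 CPM with cetuximab in SCC6, and to 1.54 to 2.23 and 2.22 to 3.15 CPM in SCC25. ITGB5, a further partner of ITGAV, fell in SCC1 (-0.43 ± 0.13, or -0.14 and adjusted p = 0.67 with the flow cell in the model) and rose in SCC6 (0.51 ± 0.14), and was at -0.05 ± 0.07 in SCC25.

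**Figure D4:**
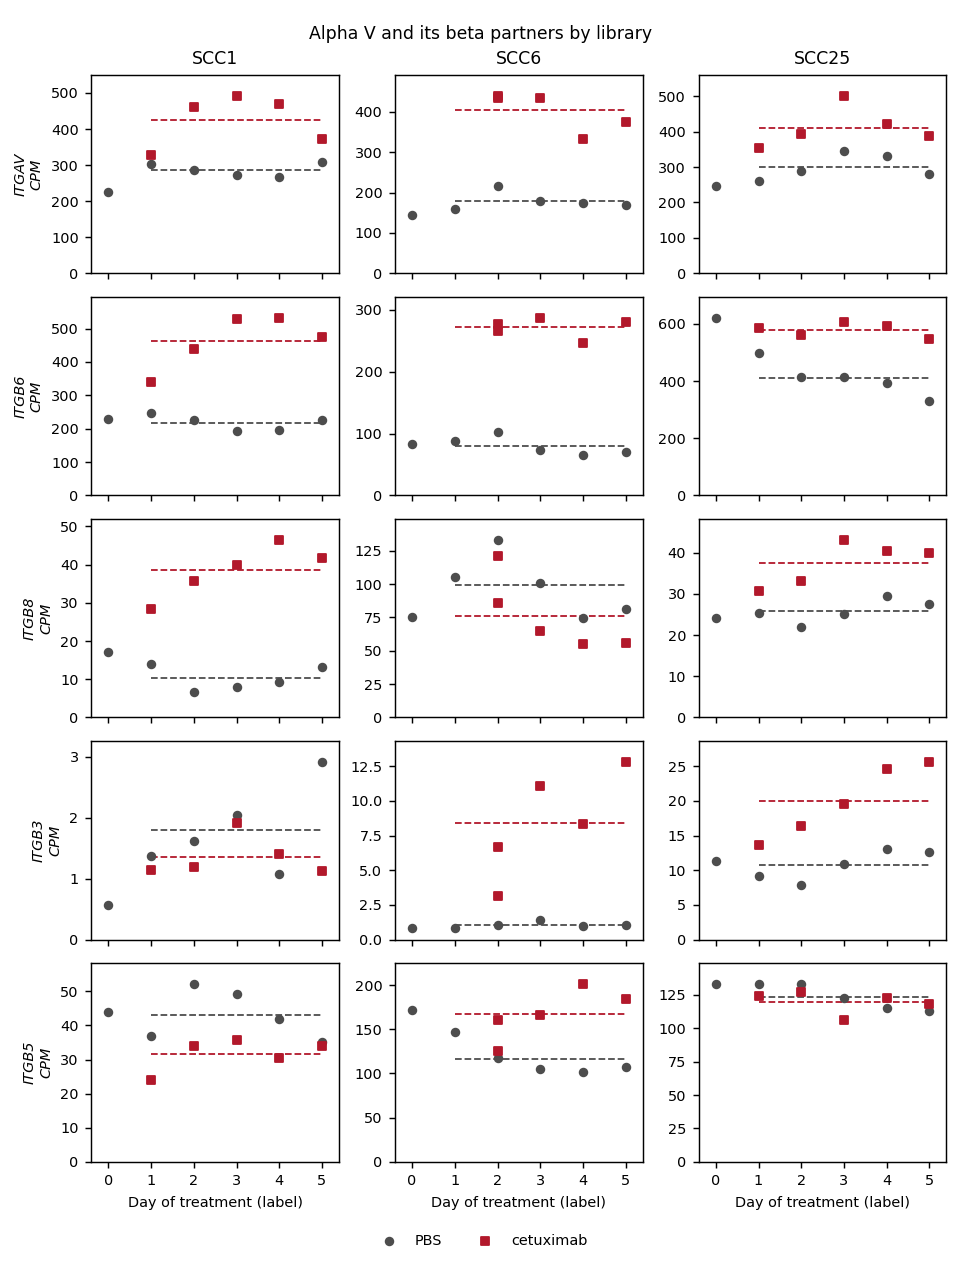
CPM of ITGAV and of its beta partners ITGB6, ITGB8, ITGB3 and ITGB5 in each library by labelled day and cell line, with PBS as grey circles and cetuximab as red squares, and dashed lines at the means of days 1 to 5. ITGAV and ITGB6 with cetuximab lie above every PBS library of days 1 to 5 in each line, while ITGB8 does so in SCC1 and SCC25 only.

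The collagen-binding subunits ITGA1 and ITGA2 fell in SCC1 and SCC6. ITGA2, the alpha subunit of the main collagen receptor of keratinocytes, showed the greatest change of any member in SCC1, from 611, 943, 1123, 928 and 872 CPM to 140, 149, 173, 152 and 126 CPM. The treated libraries were far below the untreated ones on each day, by a factor of 6.01 (log2 -2.59 ± 0.14, adjusted p = 2.9e-07). In SCC6 it went from 1301, 1553, 1434, 899 and 998 CPM to 604 (2a), 605 (2b), 592, 367 and 393 CPM, without overlap (-1.29 ± 0.20, adjusted p = 0.00061). In SCC25 it was at 324, 283, 292, 247 and 202 CPM with PBS and at 192, 192, 238, 219 and 202 CPM with cetuximab. There the groups overlapped, and the untreated level declined by 0.19 ± 0.02 log2 units a day, until both treatments were at 202 CPM on day 5. The SCC25 change of -0.38 ± 0.11 (adjusted p = 0.033) missed the threshold when any of 7 libraries was left out (largest adjusted p = 0.094) and with the flow cell in the model (-0.49, adjusted p = 0.063).

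ITGA1, an alpha subunit that binds basement membrane collagen, was at 17.2, 27.0, 26.9, 19.0 and 12.9 CPM with PBS in SCC6 and at 5.54 (2a), 5.45 (2b), 4.66, 4.33 and 6.10 CPM with cetuximab. The treated libraries were all lower, by a factor of 4.00 (log2 -2.0 ± 0.21, adjusted p = 5.6e-05). It also fell in SCC1 (-0.89 ± 0.13), where treated libraries were at 7.08 to 10.4 CPM and untreated ones at 13.1 to 20.5 CPM. In SCC25 it rose by 0.32 ± 0.08 (adjusted p = 0.016), from 10.4 to 11.7 CPM to 12 to 15.5 CPM, and this value was 0.18 (adjusted p = 0.24) with the flow cell in the model. Of the collagen receptors of mesenchymal cells and cartilage, ITGA10 fell in SCC1 (-1.33 ± 0.23) at levels of at most 1.34 CPM, and ITGA11 rose in SCC25 (0.71 ± 0.17), from 4.02 to 5.67 CPM to 4.73 to 9.93 CPM, a value of 0.33 with the flow cell in the model (adjusted p = 0.28).

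Of the laminin receptors of the basal epithelial cell, ITGA3, ITGA6 and ITGB1 fell in SCC1. ITGA3, the alpha subunit of the laminin receptor of focal contacts, was at 1088, 1472, 1446, 1336 and 1125 CPM with PBS in SCC1 and at 509, 583, 662, 592 and 587 CPM with cetuximab. The groups were clearly separate, by a factor of 2.19 (log2 -1.13 ± 0.09, adjusted p = 2.7e-06). In SCC25 it fell by 0.29 ± 0.09 (adjusted p = 0.048); the call was lost without any of 8 libraries (largest adjusted p = 0.11), and the value was -0.14 with the flow cell in the model (adjusted p = 0.45). In SCC6, the PBS library of day 1 stood at 470 CPM and those of days 2 to 5 at 234 to 253 CPM, against 261 to 515 CPM with cetuximab. ITGA3 did not pass the test there (0.42 ± 0.23, adjusted p = 0.19) and passed it within flow cell D (0.41, adjusted p = 0.019).

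ITGA6, the alpha subunit of hemidesmosomes, fell in SCC1 by 0.38 ± 0.05 (adjusted p = 6.7e-05), from 401 to 451 CPM to 299 to 330 CPM. The values were -0.37 ± 0.20 in SCC6 and -0.17 ± 0.06 in SCC25, with adjusted p = 0.18 and 0.052. ITGB4, its beta partner in hemidesmosomes, was called lower in SCC1 (-0.33 ± 0.12, adjusted p = 0.04), but the PBS library of day 5, sharing flow cell C with the treated ones, was at 574 CPM and the others at 772 to 976 CPM, against 551 to 707 CPM with cetuximab. With the flow cell in the model its sign turned to 0.16 (adjusted p = 0.47), and the call was lost without any of 7 libraries (largest adjusted p = 0.093). ITGB1 fell in SCC1, by 0.73 ± 0.08 (adjusted p = 1.2e-05) from 1063 to 1313 CPM to 655 to 815 CPM, and was at 0.02 ± 0.11 in SCC6 and 0.04 ± 0.06 in SCC25. ITGA7, a laminin receptor of muscle, fell in SCC6 (-0.95 ± 0.27, adjusted p = 0.019) and SCC25 (-0.85 ± 0.20, adjusted p = 0.013) at levels of at most 2.37 CPM. Neither call held with the flow cell in the model (-0.72 and -0.59, adjusted p = 0.12 and 0.17). ITGA5, the partner of ITGB1 for fibronectin, was at 262, 404, 465, 439 and 453 CPM with PBS in SCC1 and at 122, 135, 148, 130 and 123 CPM with cetuximab. It fell by a factor of 3.05 with no overlap (log2 -1.61 ± 0.13, adjusted p = 2.1e-06), and was at -0.11 ± 0.18 in SCC6 and -0.27 ± 0.09 in SCC25.

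Among the subunits best known from white cells, ITGA4 rose in SCC6 (1.46 ± 0.20, adjusted p = 0.00036), from 1.84 to 3.04 CPM to 4.44 to 8.22 CPM. It rose in SCC25 too, where it is abundant, from 81.1 to 98.0 CPM to 104 to 112 CPM (0.28 ± 0.06, adjusted p = 0.0057). ITGB2, the beta subunit of leukocyte integrins, fell in SCC1 (-1.42 ± 0.24) from 1.40 to 3.15 CPM to 0.452 to 0.999 CPM, as did ITGAX (-1.11 ± 0.31) at levels of at most 1.28 CPM. ITGAE fell in SCC1 by 0.30 ± 0.10 and missed the threshold without any of 4 libraries. With the flow cell in the model the calls of ITGAX and ITGAE were lost (adjusted p = 0.20 and 0.59). In SCC1 the leukocyte markers summed to 152 to 254 CPM with PBS and to 75.2 to 99.7 CPM with cetuximab. Of the 4 markers tested, LCP1, an actin-bundling protein, went from a mean of 177 to 72.5 CPM (-1.28 ± 0.15) and CD68, a lysosomal protein, from 34.9 to 7.77 CPM (-2.15 ± 0.22), while CSF1R rose from 1.05 to 4.39 CPM (2.07 ± 0.26). CD2 was at 0, and the part of these cells in the results was not tested. ITGAM, ITGAL, ITGA2B and ITGB7 were at most 0.903 CPM on days 1 to 5, and none passed the test in any line. ITGB7 had no count in the 5 SCC1 PBS libraries and 1 to 6 counts in the CTX ones.

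Whether the response differed between the lines was tested through the interaction of line and treatment in the 30 libraries of days 1 to 5. Of 33 members, 18 differed, where 26.1% of all genes did. ITGA1 had the lowest adjusted p (3.4e-08): its change was lower in SCC6 than in SCC25 by 2.31 ± 0.22 and lower in SCC6 than in SCC1 by 1.09 ± 0.22. The change of ITGA2 was 2.23 ± 0.23 log2 units higher in SCC25 than in SCC1 and 1.32 ± 0.23 higher in SCC6 than in SCC1. Those of ITGA5 and ITGB1 were higher in SCC6 than in SCC1, by 1.52 ± 0.21 and 0.77 ± 0.13, and in SCC25 than in SCC1, by 1.36 ± 0.21 and 0.78 ± 0.13. For ITGB8 the SCC6 change fell short of that in SCC1 (-2.29 ± 0.29), as did the SCC25 change (-1.38 ± 0.29).

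ITGAV and ITGB6 rose more in SCC6 than in SCC1, by 0.60 ± 0.15 and 0.68 ± 0.16, and more than in SCC25, by 0.71 ± 0.15 and 1.26 ± 0.16. ITGB3 rose more in SCC6 than in SCC25 by 2.12 ± 0.39. LAMB3 fell less in SCC25 than in SCC1 by 0.91 ± 0.25, and its change in SCC6 was lower than in SCC25 (-0.86 ± 0.25) and 0.05 ± 0.25 from that in SCC1. For LAMA3, LAMA5, LAMC1 and ITGA6 the test over the 3 lines did not pass (adjusted p = 0.071, 0.22, 0.24 and 0.59), so no difference between the lines was shown for them. The change of LAMB2, which had at most 1 count per SCC25 library, was at -0.33 ± 0.24 for SCC6 minus SCC1 (adjusted p = 0.38). By pairs, the change of 15 members was higher and of 4 lower in SCC6 than in SCC1, 19 in all, where 19.3% of all genes differed (11.0% higher, 8.24% lower). Against SCC1, the change of 10 members was higher and of 3 lower in SCC25, 13 in all, with 8.52% of all genes (4.35% and 4.17%). In SCC6 it was higher for 8 and lower for 5 than in SCC25, 13 in all, with 17.5% (10.2% and 7.35%). Without ITGB7 and LAMB2 again, the median difference over the other 31 members was 0.60 for SCC6 minus SCC1, 0.38 for SCC25 minus SCC1 and 0.17 for SCC6 minus SCC25, beside medians of all genes of 0.01, -0.00 and 0.02. With the flow cell in the model, 13 of 34 members differed among the lines, and 12.2% of all genes.

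The time of the changes was read from days 1 to 3 against days 4 and 5. In SCC1, 20 of 30 members had changed on days 1 to 3, 6 higher and 14 lower (29.6% of all genes, 14.0% higher and 15.6% lower), and 19 on days 4 and 5, 6 higher and 13 lower (29.9%, 14.5% and 15.4%). In SCC6 these were 12 of 31, 6 higher and 6 lower (20.3%, 10.7% and 9.61%), and 18 of 31, 14 higher and 4 lower (37.8%, 18.9% each way), with the CTX libraries of days 4 and 5 alone on flow cell E. In SCC25 they were 8 of 31, 4 higher and 4 lower (7.84%, 4.07% and 3.77%), and 2 of 31, ITGB3 and ITGB6, both higher (2.71%, 1.49% and 1.22%). LAMA5 in SCC6 was at 0.30 ± 0.29 on days 1 to 3 and at 1.69 ± 0.36 on days 4 and 5, and LAMB2 at 0.56 ± 0.19 and 1.48 ± 0.24. ITGA3 and ITGB4 went there from -0.05 ± 0.23 and -0.14 ± 0.22 to 1.06 ± 0.29 and 1.09 ± 0.27. LAMB3 went from -1.58 ± 0.18 to -0.57 ± 0.22. The difference between periods did not pass for any member in any line by edgeR's quasi-likelihood test. It passed for 0.0% of all genes in each line, so the lack of calls is not particular to the members. An unadjusted p under 0.05 was found for 5626 of 19150 genes in SCC6, 1458 of 19660 in SCC1 and 599 of 20740 in SCC25. DESeq2 called 7 members in SCC6 (14.8% of all genes) and 0 in SCC1 (0.158%) and SCC25 (0.0145%). Without the SCC6 PBS library of day 1, edgeR called 7 members in SCC6. The SCC25 counts turned on single libraries: leaving out the CTX library of day 3 gave 12 for days 1 to 3 and 13 for days 4 and 5, while without the PBS library of day 2 that of days 1 to 3 was 3 and without that of day 4 none was called on days 4 and 5. The changes of ITGAV and ITGB6 in SCC6 were near in size in both periods, 1.20 ± 0.10 and 1.62 ± 0.12 against 1.03 ± 0.13 and 1.94 ± 0.15.

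Without drug, 12 of 30 members had a trend over days 0 to 5 in SCC6, 10 falling and 2 rising (32.7% of all genes, 18.8% falling and 13.9% rising). In SCC25 6 of 30 had one, 3 each way (10.7%, 3.64% falling and 7.08% rising), and in SCC1 0 of 30 (2.49%, 0.777% falling and 1.71% rising). For SCC25 the split was 3 rising and 5 falling with libraries scaled to their totals alone (11.1% of all genes called). In SCC1, 3981 genes had an unadjusted p under 0.05 by edgeR and DESeq2 called 3 members (7.8% of all genes). Besides LAMA3 and LAMB3, the members that fell in SCC6 were ITGA2, ITGA3, ITGA5, ITGA6, ITGB4, ITGB5, LAMA5 and LAMC3, by 0.13 to 0.32 log2 units a day. ITGAE and LAMA4 rose. In SCC6 the flow cell changed from C to D between PBS days 1 and 2, so that an early difference between days and one between flow cells cannot be told apart.

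Lists of genes that work with the members were read against the same background of 44.8% of all genes changed in SCC1, 30.1% in SCC6 and 18.3% in SCC25. All changes given for listed genes are from fits without the flow cell, and their values with it are not given here. With the flow cell in the model, 19.7%, 25.9% and 6.58% of all genes changed in the same order. Of the 20 other basement membrane genes, 17 were tested in SCC1, where 11 rose and 2 fell (median log2 fold change 1.22). In SCC6 9 rose and 1 fell of 15 (median 1.10) and in SCC25 4 rose and 2 fell of 17 (median 0.10). DAG1, dystroglycan, a laminin receptor outside the integrin family, was higher in all 3 lines, by 1.38 ± 0.08, 1.08 ± 0.13 and 0.51 ± 0.10. The collagen IV genes COL4A1 and COL4A2 rose by 3.26 ± 0.45 and 2.78 ± 0.51 in SCC6. In SCC1 COL4A2 fell by 0.22 ± 0.07 and COL4A1 was at -0.06 ± 0.10, and in SCC25 COL4A1 fell by 0.24 ± 0.07 and COL4A2 was at -0.31 ± 0.12. COL7A1, the collagen of anchoring fibrils below hemidesmosomes, rose by 1.77 ± 0.22 in SCC1, with 0.94 ± 0.60 in SCC6 and -0.12 ± 0.16 in SCC25. NTN4, a netrin that binds laminin, rose in SCC1 (1.69 ± 0.23) and SCC25 (0.55 ± 0.07), with 0.25 ± 0.20 in SCC6. TINAGL1 fell in SCC1 by 0.75 ± 0.16 and was at 0.31 ± 0.28 in SCC6 and -0.25 ± 0.13 in SCC25, and NID2, a nidogen, fell in SCC25 by 0.42 ± 0.11.

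Of 20 other integrin ligands, 7 of 17 rose and 4 fell in SCC1, 12 of 15 rose and none fell in SCC6, and 4 of 17 rose and 3 fell in SCC25. FN1, fibronectin, averaged 9394 CPM with PBS in SCC1, 19213 in SCC6 and 7644 in SCC25. It rose in SCC6 by 1.54 ± 0.25, fell in SCC25 by 0.56 ± 0.14 and was at 0.29 ± 0.12 in SCC1. EDIL3 and FBN1, which carry RGD motifs for alpha V integrins, rose in every line. The changes of EDIL3 were 2.64 ± 0.23 in SCC1, 3.05 ± 0.29 in SCC6 and 1.52 ± 0.21 in SCC25, and those of FBN1 were 1.71 ± 0.14, 4.07 ± 0.37 and 0.53 ± 0.08. TNC, tenascin C, rose in every line too, by 0.76 ± 0.18, 2.78 ± 0.50 and 0.92 ± 0.09. FBN2 fell in SCC1 (-0.31 ± 0.05) and SCC25 (-0.35 ± 0.07) and rose in SCC6 (0.98 ± 0.10). CTGF fell in SCC1 by 0.94 ± 0.09 and rose in SCC6 by 1.08 ± 0.27, with 0.07 ± 0.16 in SCC25. ICAM1, a ligand of leukocyte integrins, fell in SCC1 by 0.93 ± 0.18 and rose in SCC6 by 0.52 ± 0.12, with 0.48 ± 0.18 in SCC25. CDH1, E-cadherin, the epithelial ligand of ITGAE and ITGB7, rose in SCC1 (0.98 ± 0.10) and SCC25 (0.44 ± 0.12) and was at -0.47 ± 0.17 in SCC6.

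The sum of the 10 fibroblast markers was higher with cetuximab in each line, and their part in the rise of matrix genes was not tested. In SCC1 6 of 6 tested rose and their sum went from 52.1 to 74.0 CPM to 97.5 to 226 CPM. In SCC6 2 of 3 rose, with sums of 3.48 to 5.33 CPM and 10.1 to 116 CPM, and in SCC25 5 of 10 rose and 1 fell, with sums of 184 to 233 CPM and 298 to 469 CPM. None of the 10 markers was at 0 throughout a line.

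Of the 6 hemidesmosome partners, 4 rose and 1 fell in SCC1, 2 rose in SCC6, and 1 rose and 1 fell in SCC25. KRT5 and KRT14, the keratins that attach there, rose by 2.58 ± 0.32 and 1.84 ± 0.21 in SCC1 while PLEC, the linker plectin, fell by 0.52 ± 0.17. DST, the dystonin gene of the linker BPAG1, rose in every line, by 1.00 ± 0.07, 0.51 ± 0.12 and 0.35 ± 0.07, and COL17A1, the collagen of hemidesmosomes, fell in SCC25 by 0.25 ± 0.06. Of the 36 adaptors that bind integrin tails or their complexes inside the cell, 6 of 35 rose and 12 fell in SCC1, 16 of 34 rose and 4 fell in SCC6, and 3 of 36 rose and 6 fell in SCC25. The tensin TNS3 rose by 0.95 ± 0.06, 1.54 ± 0.14 and 0.36 ± 0.08 in SCC1, SCC6 and SCC25, and the scaffold NEDD9 by 1.17 ± 0.12, 2.07 ± 0.29 and 0.34 ± 0.06. TGFB1I1, the adaptor Hic-5, fell in SCC1 by 0.73 ± 0.10 and rose in SCC6 by 2.13 ± 0.32, and LIMS2, of the PINCH family, rose in SCC6 by 3.04 ± 0.32. Among the falls, BCAR1 (p130Cas) was at -1.14 ± 0.15 in SCC1, FERMT1 (kindlin-1) at -1.02 ± 0.28 and PTK2B at -0.33 ± 0.09 in SCC6, and LPXN at -0.75 ± 0.14 and TNS4 at -0.62 ± 0.11 in SCC25.

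Flow cells and treatment were not balanced in any line, so the fits were repeated with the flow cell in the model. With it, 16 of 30 members changed in SCC1, where 19.7% of all genes did, 16 of 31 in SCC6 (25.9%) and 5 of 31 in SCC25 (6.58%), in place of 22, 15 and 14. In SCC25 4 of the 14 calls were kept, those of ITGA4, ITGB6, LAMA3 and LAMA4, and ITGA6 was gained as lower (-0.28, adjusted p = 0.020). Flow cell B held no SCC25 PBS library, so the SCC25 fit sets only the CTX libraries of days 1 and 2 against PBS. A lost call there can go with the flow cell, the later days or the fewer libraries, and these cannot be told apart. In SCC1 14 of 22 calls were kept, including ITGA2, ITGA3, ITGA5, ITGA6, ITGB1, ITGB6, ITGB8, LAMA5, LAMB2 and LAMB3. The 8 lost there were ITGAE, ITGAV, ITGAX, ITGB4, ITGB5, LAMA1, LAMA3 and LAMC1, and ITGA4 and ITGB3 passed as lower. That fit rests on the PBS library of day 5 as the only untreated one on flow cell C. In SCC6 13 of 15 calls were kept, LAMA3 and ITGA7 were lost, and ITGA3, ITGB4 and LAMC3 passed as higher. The SCC6 fit rests on flow cell D, and so sets CTX 2a, 2b and day 3 against PBS of days 2 to 5. It leaves out the late treated days in a line where levels drift without drug.

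**Figure D5:**
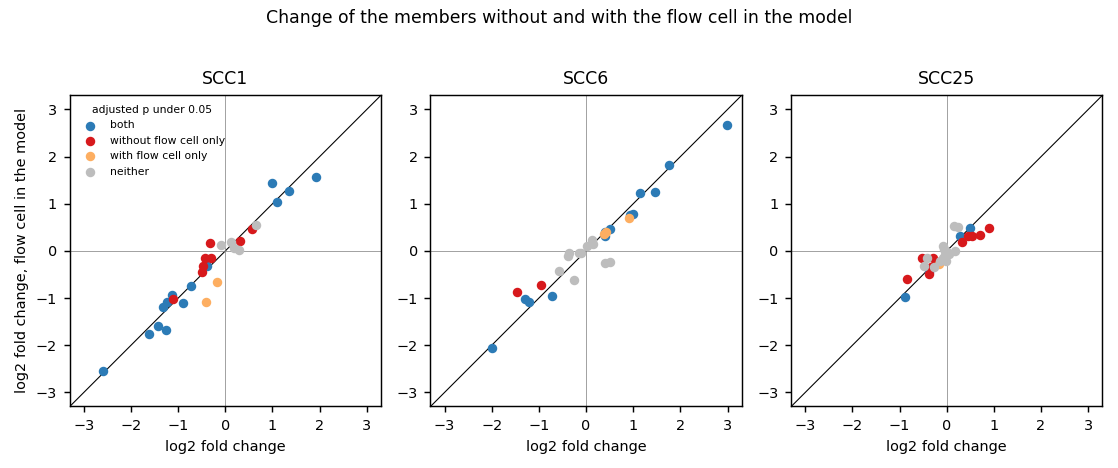
Log2 fold change of each member under cetuximab without the flow cell in the model (horizontal axis) and with it (vertical axis), 1 panel per cell line, with a line of equality. Colours show in which fit the adjusted p is under 0.05. In SCC25 most members called without the flow cell lie nearer to 0 with it, and in SCC1 and SCC6 those changed by more than 1.5 log2 units stay far from 0.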

How the data were processed

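Transcripts were quantified by the authors with Salmon 0.8.2 (per the submitters' processing notes) against hg19, and the deposited table holds estimated counts per gene symbol, not normalised. Neither the annotation release nor the use of strand in counting was given in the sources used here. The 35 members and the gene lists were chosen with earlier results of these data known. Estimated counts were rounded, filtered with filterByExpr, scaled by TMM and tested with the quasi-likelihood F test of edgeR 4.0.16 (R 4.3.3) over all genes, with Benjamini-Hochberg adjustment and a threshold of 0.05. CPM are counts over the TMM-scaled library total. Fits used 5 CTX and 5 PBS libraries of a line, all 30 libraries of days 1 to 5 for differences between lines, 15 PBS libraries for levels, and 6 PBS libraries for trends over days. Values per library are given for the 8 members of each line with the largest absolute change among those called with a mean of at least 10 CPM, and for others by role. Of the lists, up to 2 rises and 2 falls per line were named among called genes of at least 10 CPM, some with their values in other lines, and CSF1R was added after its values were seen. DESeq2 1.42.0, other scalings, no filter, the flow cell, day blocks and leaving out libraries were alternatives. Transcript lengths are from GENCODE 44 on GRCh37 and promoters from RefSeq. The fits within a line were also run on simulated libraries, drawn independently and with no effect of flow cell or day. That run cannot show how such effects bear on the calls.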

Additional observations from a re-analysis of the deposited data

Results flagged for a closer look

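In groups of 5 libraries, 113 member values were tested for a library far from the other 4, and chance flags about 1 in 20. In SCC1, ITGB1 stood at 1063 CPM with PBS on day 1 (others 1246 to 1313) and LAMB1 at 355 CPM with cetuximab on day 1 (others 434 to 464). In SCC6, the PBS library of day 1, on another flow cell than those of days 2 to 5, was high for ITGA3 (470 CPM, others 234 to 253), ITGB4 (838, others 381 to 467), LAMA5 (442, others 198 to 232) and LAMB2 (90.8, others 53.6 to 64.1). ITGB1 was high there with PBS on day 2 (2240 CPM, others 1774 to 1901). In SCC25, ITGB1 was low with PBS on day 5 (2418 CPM, others 2694 to 2798) and ITGB4 with cetuximab on day 3 (400 CPM, others 630 to 691).

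The change under cetuximab differed between the lines for 18 members by edgeR's test of the line-by-treatment terms. The adjusted p was 3.4e-08 for ITGA1, 1.3e-07 for ITGA2, 1.6e-06 for ITGB3, 2.3e-06 for ITGB8, 2.6e-06 for ITGA5, 2.9e-06 for ITGA4 and 3.9e-06 for ITGB6. It was 1.4e-05 for ITGB1, 3.3e-05 for ITGA3, 0.00023 for ITGB2, 0.00035 for ITGB5 and 0.0016 for ITGAV. It was 0.0036 for LAMB1, 0.0051 for LAMA1, 0.0081 for ITGA10, 0.0096 for LAMB3, 0.01 for LAMC3 and 0.016 for ITGB7, whose SCC1 PBS libraries held no count.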

How the results depend on the processing

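Directions of the called changes held under every alternative run except that of ITGB4 in SCC1, which was 0.16 with the flow cell in the model (adjusted p = 0.47) and 0.15 within flow cell C (adjusted p = 0.46). With the flow cell, members called were 14 over the 3 lines (29.6% of all genes), 5 in SCC25 (6.58%), 11 for SCC6 minus SCC1 (9.27%) and 7 for SCC25 minus SCC1 (3.62%), and within 1 flow cell 6 in SCC25 (9.38%). Requiring a log2 change of size 1 or more, 11 were called in SCC1 (8.74% of all genes), 8 in SCC6 (9.7%) and 0 in SCC25 (1.57%). DESeq2 called 3 members in the SCC1 trend (7.8% of all genes), 7 in SCC25 on days 4 and 5 (5.67%) and 7 for the SCC6 period difference (14.8%). Without the filter these were 1 (1.75%), 5 (1.79%) and 9 (8.78%), with 3 for the SCC1 period difference (0.53%). By library totals alone 1 was called in the SCC1 trend (2.53%). The cause of these shifts was not tested.

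With day as replicate block, SCC1 had 21 members called (44.2% of all genes), SCC6 15 (27.6%) and SCC25 17 (24.2%). The SCC25 count for days 4 and 5 was 5 (3.89%). In SCC6 the labelled days 1 and 2 were joined in a block. Correlations of same-day libraries were 0.02 to 0.14 in SCC1, 0.08 to 0.15 in SCC25 and -0.04 to 0.2 in SCC6. SCC6 PBS of day 1 was set against the CTX libraries labelled day 2, at -0.18 and -0.16. With these included, correlations were over 0.1 in 1 of 5 pairs of SCC1, 4 of 5 of SCC25 and 3 of 7 of SCC6. As not every pair was over 0.1 in any line, the days were not taken to pair the libraries. In no line did every library correlate best with its own day.

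Leaving out 1 library at a time gave 20 to 23 members called in SCC1, 12 to 19 in SCC6, 10 to 14 in SCC25 and 22 to 24 over the 3 lines. Differences gave 18 to 22 among the lines, 13 to 21 for SCC6 minus SCC1, 11 to 13 for SCC25 minus SCC1 and 10 to 16 for SCC6 minus SCC25. Calls over all genes moved as well. For SCC6 minus SCC25, the 10 members went with 2847 of 21719 genes and the 16 with 5225 of 21808. For SCC6 minus SCC1, the 13 went with 3622 of 21743 genes and the 21 with 5046 of 21808. The other ranges of this paragraph are given without the count over all genes, so they do not show the members to be less stable than other genes. Days 1 to 3 gave 17 to 20 in SCC1, 8 to 15 in SCC6 and 3 to 12 in SCC25, days 4 and 5 gave 13 to 20, 12 to 22 and 0 to 13, and the SCC6 period difference 0 to 7.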
